A study of Mus musculus with 6 samples.

Results

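Parathymosin (Ptms) and prothymosin alpha (Ptma), with every linear isoform and every circular RNA (circRNA) of either gene, were examined in the prefrontal cortex of mice given polystyrene nanoparticles (PS NPs) by mouth. Both genes were taken by symbol. Their isoforms were those whose assembly class marks exons shared with the gene (class codes =, j, c, o and e), and their circRNAs were those with Ptms or Ptma as host gene or with one of these isoforms as host transcript. This gave 2 of 54787 genes, 11 of 175010 isoforms (6 of Ptms and 5 of Ptma) and 4 of 17369 circRNAs. All 4 circRNAs came from Ptms, and no circRNA of Ptma was listed. The pair of genes was chosen by measured values of these libraries, the circRNA counts among them, so the counts of the circles are given below as a description, with no test.

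The PS_high group held 3 samples from male C57BL/6 mice gavaged once per day with 50 mg/kg body weight PS NPs for 6 months, and the control group held 3 samples from male C57BL/6 mice given water (0 mg/kg). The mice were 5 weeks of age before habituation and 30 weeks of age as samples, and the labels name no transgene or other treatment. The labels do not say that samples of a group came from separate animals, so p-values measure the spread between these samples. Total RNA was depleted of ribosomal RNA, which keeps circRNAs and transcripts without a poly(A) tail in the libraries.

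Prothymosin alpha and parathymosin are small, highly acidic, largely unfolded proteins of the nucleus. Prothymosin alpha binds linker histone H1 and acts as its chaperone, can free the transcription factor Nrf2 from its inhibitor Keap1, and restrains the apoptosome, the complex that activates caspases. Parathymosin is related to it in sequence and also binds histone H1. A circRNA forms when the end of an exon is joined back to an upstream exon start, and reads across that joint (back-splice reads) count it.

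The linear estimated counts summed to between 53344395 and 63466209 in PS_high libraries and to between 61842978 and 66004386 in control libraries. Back-splice reads numbered 15658 to 19880 in PS_high and 17554 to 19957 in control. PS_high 1 stood apart on the first principal component of the 2000 most variable genes (score 57.0, against -28.3 to 14.4 for the other libraries). Neuron markers were present in all libraries, and their summed level over 7 of 7 genes did not overlap between the groups (4902 to 5422 CPM, counts scaled to library depth, in PS_high against 3572 to 4213 CPM in control). Without the synaptic gene Snap25 the sums overlapped (3535 to 4164 CPM in PS_high and 3173 to 3716 CPM in control). Of the 7 genes, 5 had a log2 fold change above 0 and 2 below. Among all single tested genes, 7.09% had groups that did not overlap by CPM. Choroid plexus markers summed to 19.9, 812 and 512 CPM in PS_high and to 10.8, 435 and 206 CPM in control over 4 of 4 genes. Of 4 markers of dividing cells, a state in which prothymosin alpha is known to be abundant, Pcna alone passed the expression filter, and Mki67, Top2a and Mcm2 had 0 to 281 counts per library. None of 3 T cell markers passed the filter, with Cd3g at 0 in all 6 libraries. The part of these markers in the values below was not tested.

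The annotated start sites of the genes are shown because the isoforms of Ptms differed in where they began. For Ptms the RefSeq start is that of its coding isoform in the table, and for Ptma it lies upstream of the listed isoforms. Each window, from RefSeq on build GRCm38.p6, runs 5′ to 3′ on the strand of the gene from 250 bases before the annotated start to 50 bases after it, and capitals mark each match to the GC box GGGCGG, a motif of Sp1-type factors, on either strand. The Ptms window lies at chr6:124917897-124918196 on the minus strand and the Ptma window at chr1:86526307-86526606 on the plus strand.
Ptms: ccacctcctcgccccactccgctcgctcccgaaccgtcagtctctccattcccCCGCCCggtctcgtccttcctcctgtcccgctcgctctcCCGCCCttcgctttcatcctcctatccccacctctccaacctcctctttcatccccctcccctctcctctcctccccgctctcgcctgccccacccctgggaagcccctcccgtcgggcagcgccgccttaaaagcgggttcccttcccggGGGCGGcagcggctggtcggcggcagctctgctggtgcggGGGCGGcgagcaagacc
Ptma: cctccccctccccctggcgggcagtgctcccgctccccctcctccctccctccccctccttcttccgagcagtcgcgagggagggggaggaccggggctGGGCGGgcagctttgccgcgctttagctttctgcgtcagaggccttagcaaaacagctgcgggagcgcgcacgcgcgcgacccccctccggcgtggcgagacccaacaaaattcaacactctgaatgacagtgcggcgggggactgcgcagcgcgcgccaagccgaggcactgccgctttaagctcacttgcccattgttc
The Ptms window held 4 GC boxes and the Ptma window held 1, a motif present in 35.7% of all 32851 windows of this length. Neither window held the letters CCAAT (37.4% of windows), the E-box CACGTG (7.15%) or TATAAA (13.6%), searched on both strands, and no motif searched overlapped another. G and C made up 70.3% of the Ptms window and 68.0% of the Ptma window, against a median of 52.7% over all windows. These matches describe the letters of the windows only.

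Ptma was steady across the libraries. On chromosome 1 (86526726 to 86530712, plus strand, coordinates of the deposited table, whose build the sources used here do not give), its gene-level FPKM (fragments scaled to transcript length and library depth, summed over isoforms) was 36.8, 35.3 and 45.8 in PS_high 1, 2 and 3, against 41.8, 34.6 and 43.8 in control 1, 2 and 3. The groups overlapped, with the highest value in PS_high 3 and the lowest in control 2. Mean levels were 39.3 ± 5.64 FPKM in PS_high and 40.1 ± 4.86 FPKM in control (SD, n = 3 each), a level above that of 96.0% of tested genes. The log2 fold change of counts was -0.02 (SE 0.17) in edgeR, adjusted p = 1, with an interval of 2 SE on either side from -0.35 to 0.32. In this bulk tissue, a change in the number of cells that express a gene and a change in its RNA per cell cannot be told apart. Differences between libraries of the same group were ordinary for its level: the within-group SD of log2 CPM was 0.20, against a median of 0.22 over 2234 genes within 1.5-fold of its mean CPM.

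Nearly all Ptma reads were assigned to a single coding isoform, ENSMUST00000045897 (5 exons, 1216 bases). It had 3358, 2657 and 4059 estimated counts in PS_high against 3932, 3080 and 4214 in control, which was 99.0% to 99.9% of the gene in PS_high and 99.7% in each control. The other 4 isoforms each held under 1% of the gene in every library. The coding isoform ENSMUST00000186255 had 30 counts in PS_high 1 and 0 elsewhere, and the processed transcript ENSMUST00000186932 had 21 counts in PS_high 2 and 0 elsewhere. The coding isoform ENSMUST00000188533 had 0 counts in all 6 libraries. ENSMUST00000188699, a coding isoform with an earlier end, had 5, 4 and 5 counts in PS_high and 10, 8 and 11 in control, so its groups did not overlap. Its share of the gene was 0.147%, 0.149% and 0.123% in PS_high and 0.254%, 0.259% and 0.260% in control. With 3 against 3 samples an exact two-sided permutation test cannot go below 0.1, the value reached here, and adjusted over the 10 isoforms with reads it was 0.5. Over 77843 isoforms of genes with several isoforms, 4.29% had shares lower in every PS_high library than in every control, and 3.93% had shares higher.

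Ptms was about as abundant in the groups but less even between libraries. On chromosome 6 (124913681 to 124920103, minus strand) its summed FPKM was 99.6, 81.1 and 65.9 in PS_high 1, 2 and 3, against 51.1, 92.4 and 121 in control 1, 2 and 3. Both the highest and the lowest library were controls, and the groups overlapped. The means were 82.2 ± 16.9 FPKM in PS_high and 88.2 ± 35.3 FPKM in control (SD, n = 3 each), and 98.8% of tested genes lay below its mean level. In counts, which are not divided by isoform length, the means were 97.9 ± 24.5 CPM in PS_high and 89.5 ± 25.3 CPM in control. The log2 fold change was 0.13 (SE 0.26) in edgeR, adjusted p = 1, with an interval of 2 SE on either side from -0.40 to 0.66. Its within-group SD of log2 CPM was 0.40, above that of 82.0% of 2003 genes within 1.5-fold of its mean CPM, whose median was 0.22. Per length, Ptms exceeded Ptma in every library, by 2.71, 2.30 and 1.44 times in PS_high and by 1.22, 2.67 and 2.77 times in control. In CPM, however, Ptms was below Ptma in PS_high 3 (70.3 against 81.2) and in control 1 (65.3 against 80.2). The ratio per length also depends on how reads were divided between isoforms of different length. In edgeR 5 of 20272 genes (0.0247%) passed an adjusted p of 0.05, with 2 higher (0.00987%) and 3 lower (0.0148%), and neither Ptms nor Ptma was among them. Neither gene was among the 0.232% that passed in DESeq2, and no gene passed in limma.

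**Figure D1:**
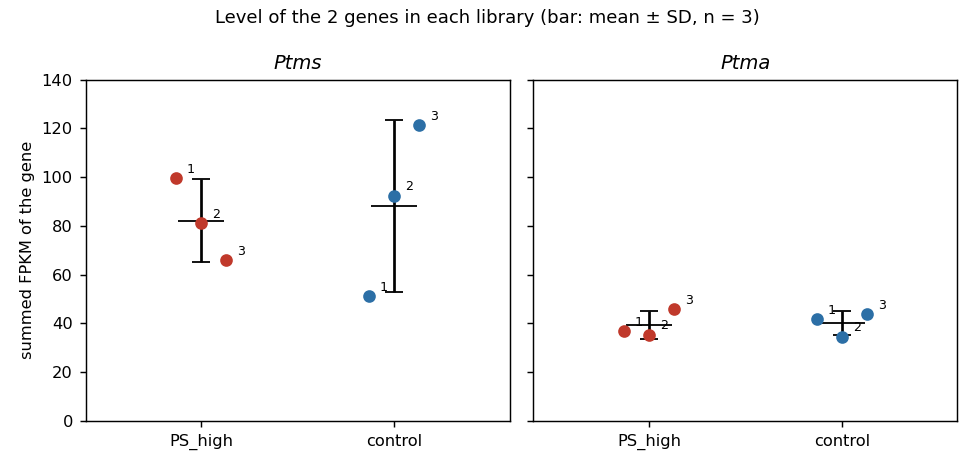
Summed FPKM of Ptms (left) and Ptma (right) in each PS_high and control library, with the replicate number beside each point and bars for the mean ± SD (n = 3). Ptms spreads from 51.1 to 121 FPKM among controls, while Ptma stays between 34.6 and 45.8 FPKM in all 6 libraries.

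Reads of Ptms were assigned to different isoforms in different libraries. ENSMUST00000032216, the 5-exon coding isoform that begins at the RefSeq start shown above, had 496, 2931 and 1570 estimated counts in PS_high against 1707, 349 and 235 in control. It held 9.07%, 64.5% and 44.6% of the gene in PS_high and 53.2%, 7.97% and 3.70% in control. The groups overlapped, since control 1 was above PS_high 3 and PS_high 1 was near control 2.

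ENSMUST00000181150, annotated as a retained intron transcript of 629 bases, spans 124914049 to 124915224. It had 1904, 1611 and 687 counts in PS_high against 690, 3346 and 4746 in control, or 34.8%, 35.4% and 19.5% of the gene in PS_high and 21.5%, 76.4% and 74.7% in control. Control 2 and control 3 stood above the rest, and control 1 lay among the PS_high libraries.

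ENSMUST00000204671, a processed transcript that begins 2157 bases upstream of the coding isoform, was present at scale in 2 libraries. It had 3035, 0 and 5 counts in PS_high and 1, 1 and 1325 in control, so PS_high 1 and control 3 held nearly all of its reads. ENSMUST00000203422, a processed transcript of 2 exons at the 3′ part of the gene, had 23, 0 and 937 counts in PS_high and 800, 673 and 24 in control. It was low in the same libraries in which ENSMUST00000204671 was high, and also in PS_high 2. The assembled isoform MSTRG.33686.4, which begins 1818 bases upstream of the coding isoform, had 0, 0 and 317 counts in PS_high and 2, 0 and 2 in control. The processed transcript ENSMUST00000134916 had 9, 5 and 3 counts in PS_high and 7, 10 and 22 in control, which overlapped. Its shares of the gene were 0.0853% to 0.165% in PS_high and 0.218% to 0.346% in control and did not overlap. Of 77843 isoforms of genes with several isoforms, 4.29% likewise had shares lower in every PS_high library than in every control. The exact two-sided permutation test gave p = 0.1, the smallest it can give, adjusted 0.5 over 10 isoforms.

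**Figure D2:**
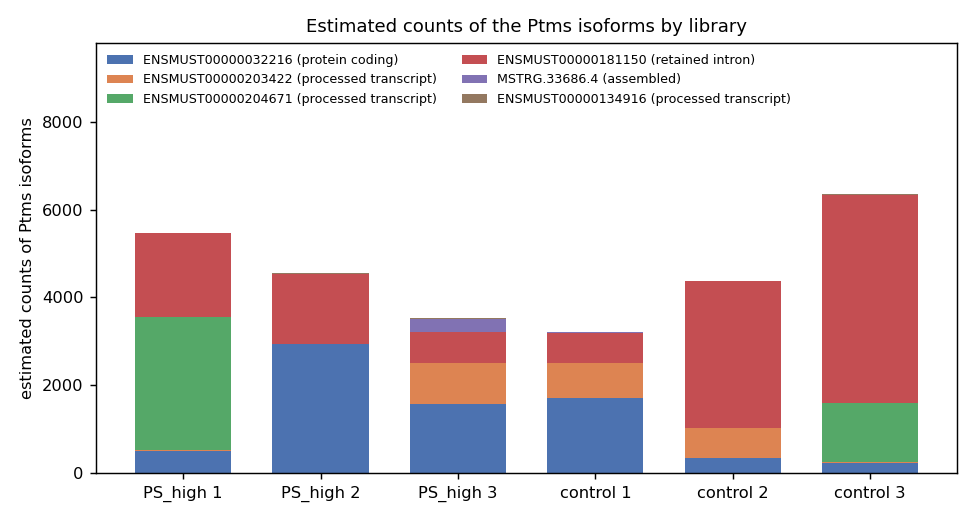
Estimated counts of the 6 Ptms isoforms stacked for each PS_high and control library, with colours for isoforms. The leading isoform is ENSMUST00000204671 in PS_high 1, ENSMUST00000032216 in PS_high 2, PS_high 3 and control 1, and ENSMUST00000181150 in control 2 and control 3.

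None of the 6 member isoforms that passed the filter of 0.5 mean FPKM (5 of Ptms and 1 of Ptma, of 11 members) passed the isoform test. Over the whole table edgeR called 3 of 69333 isoforms (0.00433%), all higher. At an unadjusted p under 0.05 it gave 1.85% higher and 1.73% lower (3.58% in all), none of them a member. Limma on log2(FPKM + 0.1) called 0.0317% of the isoforms, with no member. DESeq2 called 1.41%, with none of the 4 members to which it gave a p, and it gave none for ENSMUST00000204671 and MSTRG.33686.4. For the isoforms of Ptms the log2 fold change was 1.34 (SE 1.04) for the coding ENSMUST00000032216 and -0.92 (SE 0.77) for the retained intron ENSMUST00000181150. Leaving out 1 library at a time gave 0.54 (without PS_high 2) to 2.73 (without control 1) for the coding isoform and -1.37 (without control 1) to -0.41 (without control 3) for the retained intron isoform. It was 1.22 (SE 3.42) for ENSMUST00000204671, -0.52 (SE 2.34) for ENSMUST00000203422 and 6.31 (SE 2.99) for MSTRG.33686.4, and each adjusted p was 1. The values for ENSMUST00000204671 and MSTRG.33686.4 rested on single libraries: without PS_high 1 ENSMUST00000204671 had a log2 value of -7.23, and without PS_high 3 MSTRG.33686.4 had -3.49. The mean share of the coding isoform was 39.4% ± 28.1 in PS_high and 21.6% ± 27.4 in control, and that of the retained intron isoform was 29.9% ± 9.02 in PS_high and 57.5% ± 31.2 in control (SD, n = 3 each). In the exact two-sided permutation test of these shares p was 0.5 and 0.3, and adjusted over 10 isoforms both were 1.

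A change of leading isoform between libraries was not confined to Ptms. Of 6941 genes with at least 2 isoforms and a mean of at least 1000 counts, 20.2% had 3 or more leading isoforms over the 6 libraries, as Ptms did with 3, and 46.3% had 1, as Ptma did. The Ptms isoforms overlap for much of their length, and the counts are estimates that divide shared reads between them.

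The 4 circles of Ptms lay within 551 bases of each other in the 3′ part of the gene and inside the span of the retained intron transcript ENSMUST00000181150. circRNA4049 runs from 124914409 to 124914704 on chromosome 6 (296 bases of genome, 2 exons) and circRNA4050 from 124914409 to 124914710 (302 bases, 2 exons). They share an end and differ by 6 bases at the other. circRNA4051 runs from 124914409 to 124914959 (551 bases, 3 exons, with ENSMUST00000204671 as its listed host), and circRNA12074 from 124914436 to 124914692 (257 bases, 2 exons). The sequences of the joints are not shown because no genome was used here.

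**Figure D3:**
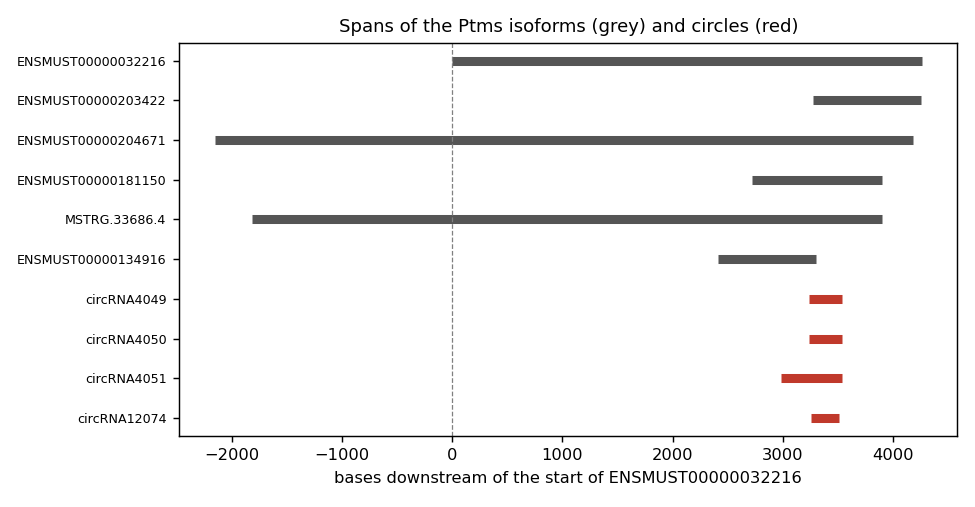
Genomic spans of the 6 Ptms isoforms (grey) and the 4 circles (red), in bases downstream of the start of the coding isoform ENSMUST00000032216, with negative values upstream. All circles lie between 2987 and 3537 bases downstream, while ENSMUST00000204671 and MSTRG.33686.4 begin 2157 and 1818 bases upstream.

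The 2 main circles differed in how they were spread over the libraries. circRNA4050 had 0 back-splice reads in PS_high 1, 2 and 3, against 12, 20 and 19 in control 1, 2 and 3. It was present in every control and in no PS_high library. Its mean level was 134 ± 38.3 SRPBM (back-splice reads scaled to mapped reads, SD, n = 3) in control, with PS_high listed at 0. Taking 3 reads over the PS_high group as the limit that a count of 0 allows, the level over the control libraries was 14.8 times that limit. That figure covers the counting error of the PS_high count of 0 only and takes the 51 control reads as they stand. The circle counts were among the values that chose the genes, so no minimum size of a group effect is read from it. Of 3275 circRNAs with reads in at least 3 libraries, 2.75% had reads in every control and 0 in every PS_high library. circRNA4050 was in that set through its controls alone, and nothing is read from this share. The reverse, reads in every PS_high library and 0 in every control, held for 1.56%. By SRPBM, 4.52% were lower in every PS_high library than in every control, as circRNA4050 was, and 6.44% were higher.

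circRNA4049, whose end differs by 6 bases, had 38, 10 and 14 reads in PS_high against 12, 8 and 16 in control. PS_high 1 was the highest library, and the remaining PS_high libraries lay within the range of the controls. Its level was 184 ± 132 SRPBM in PS_high and 94.2 ± 32.3 SRPBM in control (SD, n = 3 each), a log2 ratio of means of 0.97 that was 0.20 without PS_high 1. By mean SRPBM circRNA4049 ranked 114 and circRNA4050 ranked 327 of 17369 circRNAs.

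Counted as a single circle, circRNA4049 and circRNA4050 had 38, 10 and 14 reads in PS_high and 24, 28 and 35 in control. The groups then overlapped, because PS_high 1 was the highest library while PS_high 2 and PS_high 3 were below all controls. The joint level was 184 ± 132 SRPBM in PS_high and 229 ± 50.2 SRPBM in control (SD, n = 3 each), a log2 ratio of -0.31. This joint count was chosen after the values had been seen. Within the pair circRNA4050 made up 0% of reads in each PS_high library, with upper limits of 7.89%, 30.0% and 21.4% from 3 reads. In control it made up 50.0% (95% Wilson interval 31.4% to 68.6%), 71.4% (52.9% to 84.7%) and 54.3% (38.2% to 69.5%).

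Pairs of circles with a shared end and the other end 1 to 10 bases apart were common in the table. There were 1408 such pairs, 1230 of them 1 base apart, and in 93.5% of pairs no library held reads of both circles. The share was 98.4% for pairs 1 base apart and 59.6% for the 178 pairs 2 to 10 bases apart. At least 3 libraries held both circles in 10 of the 1408 pairs, 8 of them among the 178 pairs 2 to 10 bases apart. The Ptms pair, 6 bases apart, was among these 8, with the 3 controls. Finding both circles in a library also depends on read depth, and no share was taken over pairs of like depth. In a deeper Snhg11 pair, 1 base apart, 1 circle had 77, 85 and 106 reads in PS_high and 79, 0 and 0 in control. The other circle had 0 reads in each PS_high library and 0, 104 and 118 in control. In a deeper Hivep2 pair, 3 bases apart, 5 libraries held both circles. The bearing of such pairs on the Ptms pair was not tested.

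The ends of the Ptms circles also differed from most circles in where they met the annotated exons. The table gave both flanking introns as coordinates for 2023 of 15118 exonic circRNAs, and 94.6% of these ended exactly at both listed exon edges. None of the 4 Ptms circles did. The end at 124914409 of circRNA4049, circRNA4050 and circRNA4051 lay at the listed edge, but their other ends lay 9, 3 and 30 bases inside the exon. circRNA12074 ended 27 and 21 bases inside. What sets these ends was not tested.

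The minor circles appeared in few libraries. circRNA4051 had 8, 0 and 0 reads in PS_high and 3, 0 and 0 in control, and circRNA12074 had 5, 0 and 4 in PS_high and 0 in each control. Neither was in the 3 libraries that the filter asked for. The listed host transcript of circRNA4051 had 3035 counts in PS_high 1 but also 1325 in control 3, where the circle had 0 reads.

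**Figure D4:**
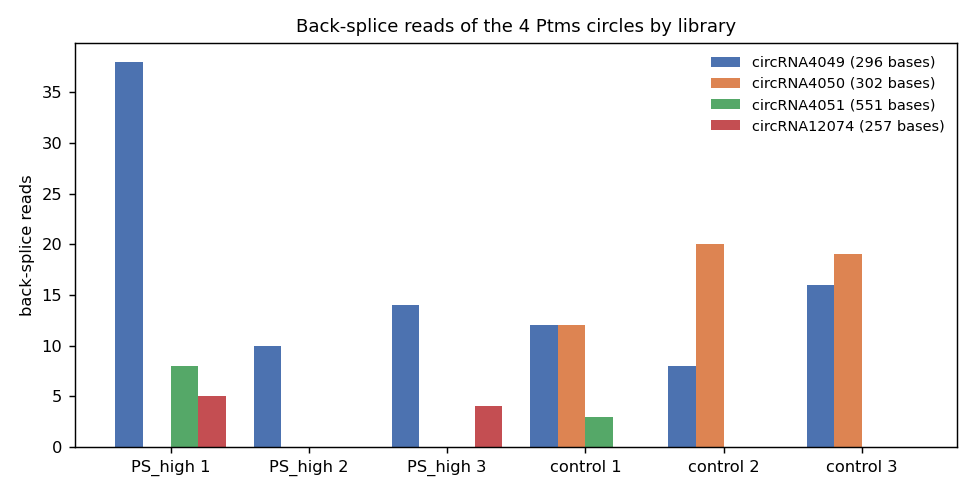
Back-splice reads of the 4 Ptms circles in each PS_high and control library, with colours for circles and their genomic span in the legend. circRNA4050 has 12, 20 and 19 reads in the controls and 0 in the PS_high libraries, while circRNA4049 has reads in all 6 libraries, most in PS_high 1 (38).

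Together the 4 circles had 51, 10 and 18 reads in PS_high against 27, 28 and 35 in control. PS_high held both the highest and the lowest library, and the groups overlapped. The summed level was 234 ± 190 SRPBM in PS_high and 236 ± 40.1 SRPBM in control (SD, n = 3 each). Per 1000 estimated linear counts of Ptms there were 9.33, 2.20 and 5.12 circle reads in PS_high and 8.42, 6.39 and 5.51 in control. The means were 5.55 ± 3.58 in PS_high and 6.77 ± 1.49 in control. With PS_high 1 left out, the log2 ratio of the summed level was -0.91, against -0.01 with it.

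The genes whose depth-scaled log2 counts followed Ptms most closely over the 6 libraries were Terf2, a telomere-binding protein (Pearson r = 0.99), Fam219b, the tropomodulin gene Tmod1, Zfp719 and the splicing factor gene Syf2 (0.98 each). Those most like Ptma were Dus4l (0.99), the coenzyme Q gene Coq9, the heterochromatin protein gene Cbx1, the myotrophin gene Mtpn and the protocadherin gene Pcdhb10 (0.98 each). These are descriptions over 6 libraries and 12608 genes, of which 12 exceeded an r of 0.95 with Ptms and 30 with Ptma. Between Ptms and Ptma r was -0.41.

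The lists of linked processes held 59 gene symbols, with both older and newer names for linker histones. Of these 53 were found in the data and 47 were tested. None passed an adjusted p of 0.05 in edgeR, nor in DESeq2 or limma. By edgeR's unadjusted p under 0.05, 5 were higher and 1 was lower, against 1.26% higher and 1.47% lower (2.73% in all) of the 20272 genes. The median log2 fold change of the 47 was 0.04, with 26 above 0, against a median of -0.01 over all genes.

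Linker histones, to which both proteins bind, had 4 of 6 tested genes above 0 (median 0.32). Hist1h1e, the H1.4 gene, stood at 2.14, 3.95 and 2.90 CPM in PS_high against 2.08, 1.66 and 1.80 CPM in control (log2 0.70, SE 0.30, unadjusted p = 0.0490 and adjusted p = 1 in edgeR). H1f0, the H1 variant of non-dividing cells and the most abundant of the list, stood at 65.9, 82.3 and 40.0 CPM in PS_high against 69.1, 31.2 and 42.3 CPM in control, groups that overlapped. Next in level were Hist1h1c (log2 0.23) and Hist1h1a (-0.15).

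Acidic histone chaperones, which share the charge of the prothymosins, had 7 of 11 genes above 0 (median 0.07). Set, an acidic inhibitor of histone acetylation, stood at 141, 97.1 and 144 CPM in PS_high against 86.1, 67.4 and 74.3 CPM in control. The groups did not overlap (7.09% of all tested genes), and the log2 fold change of 0.75 (SE 0.19) had an adjusted p of 1 in edgeR. The abundant chaperone genes Nap1l1 (log2 -0.10), Nap1l5 (0.16) and Ncl (0.10) did not pass, and Anp32a, which promotes caspase activation by the apoptosome, had 0.16.

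The apoptosome list had 6 of 8 genes below 0 (median -0.11). Apaf1, the scaffold of the complex, had a log2 value of 0.25 and Casp9, the caspase it activates, -0.42. The most abundant genes of the list were the caspase inhibitor Xiap (-0.02), the cytochrome c gene Cycs (0.07) and Diablo, which counters Xiap (-0.29). Diablo stood at 33.4, 31.3 and 26.9 CPM in PS_high against 40.3, 35.1 and 36.7 CPM in control. Its groups did not overlap, as for 7.09% of all tested genes.

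The Keap1-Nrf2 list was split, with 5 genes above 0 and 5 below (median 0.00). Keap1 itself had a log2 value of -0.04 and Nfe2l2, the Nrf2 gene, 0.18. The most abundant of the list were Cul3, which pairs with Keap1 in degrading Nrf2 (0.12), the cystine transporter gene Slc7a11 (0.14) and Srxn1. Srxn1 stood at 67.3, 45.7 and 73.4 CPM in PS_high against 30.2, 48.2 and 39.1 CPM in control, with PS_high 2 below control 2 (log2 0.66, SE 0.24, adjusted p = 1 in edgeR). Gclm, a glutathione synthesis gene, stood at 24.0, 19.5 and 24.1 CPM in PS_high against 29.9, 31.0 and 101 CPM in control. The groups did not overlap, as for 7.09% of all tested genes, and control 3 stood far above the rest (log2 -1.26, SE 0.47, adjusted p = 1 in edgeR).

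Nuclear import and coactivator genes had 6 of 8 above 0 (median 0.05), among them the importin gene Kpna6. It stood at 154, 160 and 156 CPM in PS_high against 61.0, 114 and 128 CPM in control. The groups did not overlap, as for 7.09% of all tested genes (log2 0.63, SE 0.26, adjusted p = 1 in edgeR). The most abundant were the importins Kpna1 (-0.35) and Kpnb1 (0.09) and the coactivator Crebbp (0.06). Lgmn, the protease that can release thymosin alpha 1 from prothymosin alpha, had -0.03, and S100a13, linked to prothymosin release from cells, had -0.25. The beta thymosins are actin-binding peptides unrelated to the prothymosins in spite of the name. Of these Tmsb10 stood at 3.40, 3.13 and 2.62 CPM in PS_high against 1.44, 1.87 and 1.35 CPM in control (log2 0.97, SE 0.26, adjusted p = 1 in edgeR), and Tmsb4x had 0.11.

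**Figure D5:**
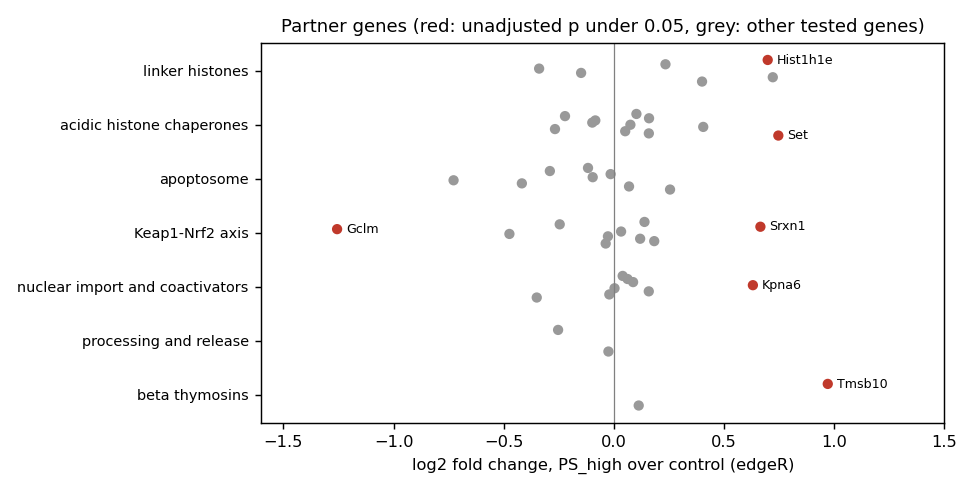
Log2 fold change of PS_high over control for the 47 tested genes of 7 lists, by list, with red points for an unadjusted p under 0.05. Set, Hist1h1e, Srxn1, Kpna6 and Tmsb10 lie to the right and Gclm to the left, and none passed after adjustment.

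Genes next to Ptms included A230083G16Rik, an antisense transcript on the opposite strand (124916863 to 124925844) that overlaps the upstream part of Ptms. It had 54, 63 and 49 counts in PS_high against 21, 11 and 30 in control. The groups did not overlap, as for 7.09% of all tested genes by CPM, and the log2 fold change was 1.58 (SE 0.43, adjusted p = 1 in edgeR). The library kit keeps strand, but the sources used here do not say whether counting used it, so reads of either gene in the overlap are uncertain. Mlf2, also on the plus strand, overlaps Ptms in the assembly (124916788 to 124937238) and had a log2 value of -0.02. The span of A230083G16Rik lies within that of Mlf2 on the same strand, where strand cannot tell their reads apart. Cops7a, further away, had -0.07. The T cell genes Lag3 and Cd4, also within 50 kb, were below the filter, with 4 to 58 counts per library for Lag3 and 25 to 87 for Cd4. Next to Ptma, Pde6d had 0.09. Of the processed copies of Ptma, Ptma-ps1 had 0 counts in all libraries, and Gm12504, a transcribed pseudogene that RefSeq lists as Ptma-ps2, had 92, 102 and 45 counts in PS_high against 91, 99 and 95 in control. Reads that match both Ptma and a copy could have been assigned to either.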

How the data were processed

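RNA of 6 prefrontal cortex samples was analysed from 2 deposited tables. Per the submitters' processing notes HISAT2, StringTie and TopHat were used, with versions, roles and genome build not given in the sources used here. Per the file headers the authors deposited FPKM and an estimated count for each linear isoform (whole numbers, with 0.0001 FPKM at a count of 0). For circRNAs the authors deposited back-splice counts and a signal, SRPBM, which equalled the count times 1 constant per library.

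Gene counts were sums of estimated counts over isoforms of the same symbol with class codes =, j, c, o and e. Features averaging 0.5 FPKM or more over all libraries were tested with edgeR 4.0.16 (R 4.3.3, quasi-likelihood test, TMM, two-sided, Benjamini-Hochberg over the whole table). The gene fit was tested on simulated data, where it recovered the genes with larger fold changes but missed most of those with smaller ones. DESeq2 1.42.0 and limma 3.58.1 on log2(FPKM + 0.1) were alternatives. Host identifiers of circRNAs were matched to symbols through a name table.

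The planned tests of the Ptms circles were not run, because those counts were known when the genes were chosen. Members and lists were chosen with earlier results of these data known. Isoforms with at least 5% of their gene in a library, all circles, list genes with an unadjusted p under 0.05 or among the 3 most abundant, and the 5 most correlated genes were to be named. Further list genes (Anp32a, Casp9, Apaf1, Keap1 and Nfe2l2) were named after their values were seen, and a listed gene is not reported here by itself. Wilson intervals and floors of 3 reads cover counting error only. The intervals of 2 SE come from the edgeR fit and also include the spread between samples.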

Additional observations from a re-analysis of the deposited data

How the results depend on the processing

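No member gene, isoform or listed partner gene passed an adjusted p of 0.05 in edgeR or under any alternative that gave it a p. DESeq2 gave none for ENSMUST00000204671 and MSTRG.33686.4, 2 of the 6 member isoforms tested. Of 224 alternative values, 199 were labelled unchanged. They kept their direction, moved by less than the spread between samples or, for numbers of features called, stayed at 0. The circle values for reads in at least 1 library repeat the main value by construction, so the 199 is not a measure of stability. The log2 value of Ptms was -0.0347 and -0.0351 in limma on log2(FPKM + 0.1) and log2(FPKM + 1), and over fits without a single library it ranged from -0.0535 to 0.36, below 0 without PS_high 1 (-0.0148) or control 1. That of Ptma ranged from -0.12 to 0.0701. Without single libraries, isoform log2 values ranged from -0.18 to 0.0650 for ENSMUST00000045897, from 0.54 to 2.73 for ENSMUST00000032216, from -1.37 to -0.41 for ENSMUST00000181150, from -5.41 to 0.0628 for ENSMUST00000203422, from -7.23 to 9.81 for ENSMUST00000204671 and from -3.49 to 6.90 for MSTRG.33686.4. The differences in share ranged from 5.21 to 33.5 percentage points for ENSMUST00000032216 (17.8 with all), from -45.6 to -18.2 for ENSMUST00000181150 (-27.6 with all), from -13.4 to 1.14 for ENSMUST00000203422, from -6.90 to 20.9 for ENSMUST00000204671 and from -0.0313 to 4.47 for MSTRG.33686.4. The cause of these reversals was not tested.

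For the circles, the log2 upper bound of circRNA4050 was -3.89, and -4.12 to -3.25 without single libraries, where fewer libraries raise the floor. These bounds cover the counting error of the PS_high count of 0 only, not that of the control reads. They describe counts that were known when the genes were chosen. Counted as 1 circle, circRNA4049 and circRNA4050 had a log2 ratio of mean SRPBM of -0.31, which is a ratio and not a bound. This setting was chosen after the data were seen. The log2 ratio of circRNA4049 ranged from 0.20 to 1.27, that of all 4 circles from -0.91 to 0.35, and that relative to the host from -0.89 to 0.09. DESeq2 and the block fit were not run for circles, and the host offset model was replaced by the ratio of reads.

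With replicate number as a block 0 genes (650 at an unadjusted p under 0.05) and 0 isoforms (2985) passed in edgeR, against 5 and 3 without it. The genes called numbered 47 in DESeq2, 2 with no filter, 0 in limma at either pseudocount (585 and 609 before adjustment), 0 when only annotated isoforms were summed (694) and 0 to 17 without single libraries, 17 without PS_high 1. The isoforms called numbered 978 in DESeq2, 22 and 20 in limma, 0 with no filter (3878) and 0 to 1 without single libraries. The log2 values under the block were 0.14 for Ptms, -0.01 for Ptma, -2.29 for ENSMUST00000204671, -4.78 for ENSMUST00000203422, 3.92 for MSTRG.33686.4, 1.80 for ENSMUST00000032216 and -0.68 for ENSMUST00000181150. In limma on log2(FPKM + 0.1) ENSMUST00000203422 had -2.31, ENSMUST00000204671 0.63 and MSTRG.33686.4 1.91. Deviations from the group means correlated by 0.16, 0.09 and 0.06 between samples of like number, each the highest for its sample, but the labels give no shared animal or day and the numbers were not taken as pairs. Depth limits the circles: with 0 to 38 reads per library, counting error alone is wide.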
